A study of Mus musculus with 12 samples.

Results

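RNA levels of 10 genes encoding transcription factors of mesenchymal identity (Prrx1, Prrx2, Twist1, Twist2, Snai1, Snai2, Zeb1, Zeb2, Tcf4 and Runx1) were followed in the raw read counts of mouse ear fibroblasts on alginate hydrogels. They were taken by name from the 33246 genes of the count table, and all 10 were detected and tested. The fibroblasts came from the ears of C57BL/6 mice, male and female and 1 month old, and were used at passage 2, and no transgene or added factor is named for these samples. They were cultured for 48 h on gels of 2 kPa or 20 kPa that were either elastic (covalently crosslinked, holding a constant load) or viscoelastic (ionically crosslinked, with slow stress relaxation), and each of these 4 groups had 3 samples. The comparisons asked whether RNA levels followed the viscoelasticity of the substrate at either stiffness, and whether they followed stiffness on either kind of gel. The study calls the 3 samples of a group biological replicates. How many animals stood behind them was not given, so the p-values measure the spread between these samples, which may be partly technical.

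These factors keep or install the mesenchymal state. The Snail proteins (Snai1 and Snai2) and the Zeb proteins (Zeb1 and Zeb2) are zinc-finger repressors that bind E-box sequences and silence epithelial genes such as the E-cadherin gene Cdh1 during epithelial-mesenchymal transition (EMT). The Twist proteins are basic helix-loop-helix factors that bind E-boxes as dimers with E proteins, of which Tcf4 is one. ID proteins lack the DNA-binding part and take E proteins away from such dimers. Prrx1 and Prrx2 are homeodomain proteins of limb and craniofacial mesenchyme, and Runx1, known best from blood formation, binds DNA together with Cbfb and is also made in mesenchymal cells. Since a bulk library averages over all cells, fewer cells of a type and less RNA per cell cannot be told apart in any of the values that follow.

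Total counts per sample ran from 36626221 to 43612804. Defining fibroblast genes were abundant in every library, with all 12 of the listed markers passing the filter and summed levels of 24910 to 30095 CPM (the count scaled to library size). Markers of leukocytes, endothelium, melanocytes, skeletal muscle and adipocytes were low. The macrophage and leukocyte list summed to 8.55 to 13.6 CPM, mostly Cd68 (mean 4.25 CPM) and Cd14 (3.97 CPM). Ptprc, the pan-leukocyte surface phosphatase, averaged 0.22 CPM. Cartilage genes were an exception. Col2a1, the main collagen of cartilage, averaged 2839 CPM and the proteoglycan Acan 1139 CPM, whereas Matn1, a further cartilage matrix gene, averaged 0.03 CPM. The sum of the 5 chondrocyte markers ran from 4405 to 5718 CPM on 2-kPa elastic gels, from 4096 to 4152 on 20-kPa elastic gels, from 4338 to 5602 on 2-kPa viscoelastic gels and from 4503 to 5775 on 20-kPa viscoelastic gels. It was thus lowest in the stiff elastic group, with no overlap with the other 3 groups. Smooth muscle and pericyte markers, carried mostly by Acta2 and Cspg4, were also present, with sums of 987 to 1109 CPM on soft elastic, 1131 to 1379 on stiff elastic, 971 to 1032 on soft viscoelastic and 826 to 962 CPM on stiff viscoelastic gels. Keratinocyte markers summed to 14.2 to 23.5 CPM, mostly Trp63. The Schwann cell list summed to 45.0 to 95.1 CPM, mostly S100b (Sox10 averaged 0.286 CPM), which cartilage also makes, with its lowest values on stiff elastic gels. The marker genes named in the text were picked after their values were seen. The part of any of these cell types in the results was not tested.

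All members are protein-coding genes, placed here on the mouse build mm10 (GRCm38). Prrx1 occupies chr1:163245119-163313710 on the minus strand and Prrx2 chr2:30834972-30881251 on the plus strand. Twist1 is a short gene at chr12:33957671-33959829, plus strand, and Twist2 lies at chr1:91801461-91848028, plus strand. Snai1 is at chr2:167538195-167542814 and Snai2 at chr16:14705852-14709385, both on the plus strand. Zeb2 spans chr2:44983632-45117395 and Runx1 chr16:92601466-92826149, both on the minus strand. The summed exon length runs from 1621 bases for Snai1 to 27382 for Tcf4, with 11066 for Prrx1 and 19942 for Zeb2. Exons of Twist2 share 46.5% of their bases with a transcript annotated on the opposite strand, and whether the counting used strand is not given in the sources used here, so that reads of both strands could be mixed. For the other members the shared part was 3.27% or less.

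Promoters of 3 called members, Prrx1, Twist1 and Runx1, are shown to let their start regions be compared. The letters are RefSeq bases (build GRCm38.p6) directly upstream of the annotated start, 5′ to 3′ on the strand of the gene, with 190 bases of Prrx1 (chr1:163313711-163313900, minus strand), 250 of Twist1 (chr12:33957421-33957670, plus strand) and 175 of Runx1 (chr16:92826150-92826324, minus strand). Capitals mark matches on either strand to the E-box CANNTG, the TATA-box TATAAA and the CCAAT box.
Prrx1: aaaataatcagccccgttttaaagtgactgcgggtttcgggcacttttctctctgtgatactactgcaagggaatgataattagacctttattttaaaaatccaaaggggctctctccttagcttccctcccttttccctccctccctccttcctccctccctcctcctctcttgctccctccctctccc
Twist1: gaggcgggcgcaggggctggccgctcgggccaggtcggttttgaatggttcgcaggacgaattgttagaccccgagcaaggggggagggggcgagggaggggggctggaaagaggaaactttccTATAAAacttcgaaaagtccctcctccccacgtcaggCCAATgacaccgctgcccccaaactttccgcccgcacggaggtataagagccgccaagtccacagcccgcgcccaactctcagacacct
Runx1: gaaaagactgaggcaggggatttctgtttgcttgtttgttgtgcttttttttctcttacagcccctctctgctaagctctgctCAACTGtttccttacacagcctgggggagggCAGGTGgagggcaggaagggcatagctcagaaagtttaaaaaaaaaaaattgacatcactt
The Prrx1 stretch held none of these motifs. That of Twist1 held 1 TATAAA and 1 CCAAT and no E-box, and that of Runx1 held 2 E-boxes, one of which reads CAGGTG, the reverse complement of CACCTG, the form that Snail and Zeb zinc fingers are known to bind. Among 32851 RefSeq promoters, the 250 bases before the start held CANNTG in 66.2%, CACCTG in 17.2%, TATAAA in 12.4% and CCAAT in 33.8%. The stretches of Prrx1 and Runx1 shown are shorter than that. Over the full 250 bases before the RefSeq start, this Runx1 promoter held 3 E-boxes and 2 CCAAT, and that of Prrx1 still none of these motifs. Another RefSeq promoter of Runx1, not shown, held no E-box and 2 CCAAT. A match is only a string of letters, and no binding was measured here.

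Levels were compared between the genes per kilobase (kb) of exon. The length joins the exons of all annotated transcripts, 62 for Tcf4, 29 for Zeb2 and 5 for Prrx1 against 1 for Snai1. Genes with many transcripts can thus be divided by more than the length of a single RNA. The order below depends on this annotation. Snai1 had the highest level at 53.7 ± 2.86 CPM per kb (SD over 12 samples), followed by Twist1 at 50.2 ± 6.11, Prrx1 at 49.1 ± 5.15 and Snai2 at 44.6 ± 6.2. The ranges of these 4 genes over all 12 samples overlapped. Within single libraries Snai2 was below Snai1 in both elastic groups and on soft viscoelastic gels. On stiff viscoelastic gels the ratio of Snai2 to Snai1 was 0.935, 0.991 and 1.09. The ratios of each group are given further on. Prrx2 came next at 27.4 ± 1.96 and Tcf4 at 21.0 ± 1.74 CPM per kb, also with overlapping ranges. Runx1 at 13.9 ± 1.25 and Zeb1 at 13.3 ± 0.407 CPM per kb did not differ beyond their spread. Zeb2 at 2.98 ± 0.326 and Twist2 at 1.87 ± 0.228 CPM per kb were lowest, and here the ranges did not meet. Without the division by length, Tcf4 (574 CPM) and Prrx1 (544 CPM) took the most reads and Twist2 (5.95 CPM, 187 to 304 counts per library) the fewest. Zeb1 varied least across the 12 samples, with a coefficient of variation of 3.05%, and Snai2 most, with 13.9%. For Twist2 counting alone gives a coefficient of variation of 6.36%, against 2.12% or less for the other members.

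**Figure D1:**
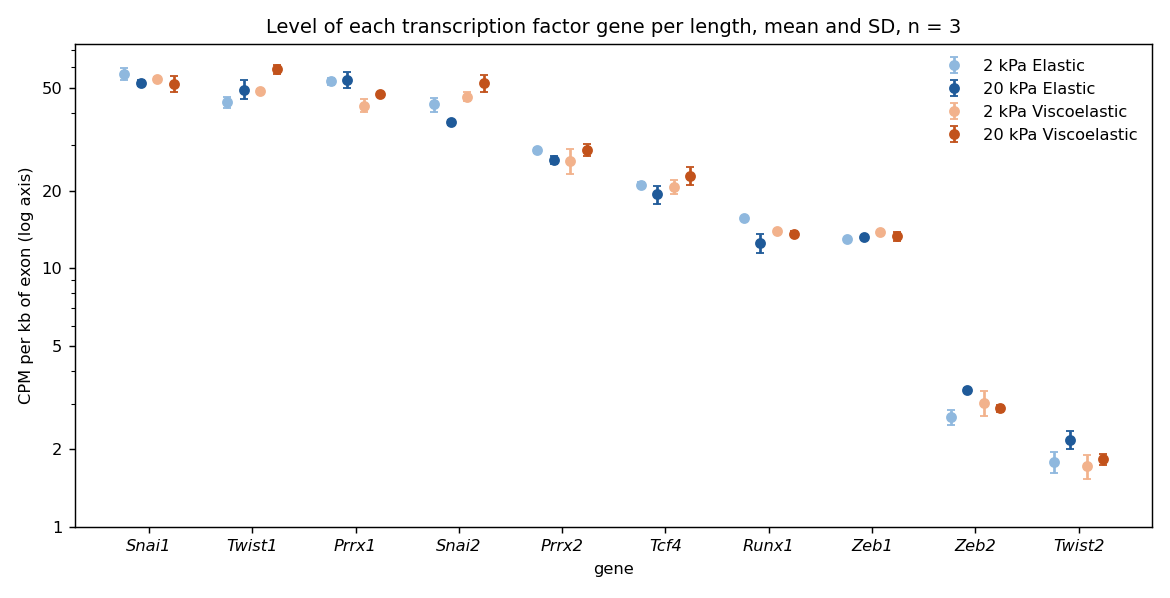
Level of each gene in CPM per kb of exon (log axis), as the mean and SD of 3 samples for each of the 4 gel groups. Snai1, Twist1, Prrx1 and Snai2 lie close together at the top, and Zeb2 and Twist2 lie lowest in every group.

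On soft gels Prrx1 was the only one of the 10 genes called for viscoelasticity, with a lower level on viscoelastic gels. At 2 kPa, 1 member was called, against 19.9% of the 14542 genes tested (8.77% up, 11.1% down), and the median log2 fold change of the members was -0.04 against 0.00 for all genes (edgeR's quasi-likelihood test, Benjamini-Hochberg adjusted p under 0.05 over all genes). Prrx1 stood at 593, 600 and 565 CPM on elastic gels and at 501, 467 and 449 CPM on viscoelastic gels of 2 kPa. All viscoelastic samples were below all elastic ones. The log2 fold change was -0.31 ± 0.07 (SE, n = 3 against 3), a fall of 19.5%, with an edgeR adjusted p of 0.00482. The call held in every alternative computation tried at a threshold of 0.05.

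Its paralog Prrx2 was at 57.6, 56.2 and 54.9 CPM on soft elastic gels and at 50.6, 45.8 and 56.9 CPM on soft viscoelastic gels. The groups overlapped through 1 viscoelastic sample, and the log2 fold change of -0.14 ± 0.07 was not called (edgeR adjusted p = 0.184). Without that sample, replicate 3, it was -0.22 and was called (edgeR adjusted p = 0.0428). Runx1 came nearest to the threshold among the members that were not called. Its levels were 185, 188 and 190 CPM on elastic and 170, 166 and 167 CPM on viscoelastic gels. The samples did not overlap, as was the case for 36.3% of all genes, and the log2 fold change was -0.16 ± 0.06 with an edgeR adjusted p of 0.0643. It was called by DESeq2 (adjusted p = 0.0338), with the GC correction (0.0439) and without stiff elastic replicate 3 (0.0417). Zeb2, with a log2 fold change of 0.18 ± 0.07 (edgeR adjusted p = 0.0903), came next. With a correction for exon length, the log2 fold change of Zeb2 was 0.34 and was called (edgeR adjusted p = 0.00218), as it was with total counts (0.0393) and without soft viscoelastic replicate 2 (0.0347). For the other 6 members the edgeR adjusted p ran from 0.134 for Twist1 to 0.850 for Tcf4, and the 95% interval of Tcf4 was -0.19 to 0.14 on the log2 scale. Twist1 was called with the GC correction (log2 fold change 0.21, edgeR adjusted p = 0.0458).

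Among 24 mesenchymal effector genes of EMT tested on soft gels, 3 rose and 4 fell with viscoelasticity. These calls were 29.2% of the list, against 19.9% of all genes. Fap, a surface protease of activated fibroblasts, fell by 1.67 on the log2 scale (SE 0.19, edgeR adjusted p = 6.29e-05) from 24.5 ± 3.67 to 7.68 ± 1.80 CPM (SD, n = 3). S100a4, a calcium-binding protein much used as a fibroblast marker, rose by 0.35 ± 0.06 (SE).  Among 30 other mesenchymal factors tested 4 rose and 2 fell, 20% of those tested and close to the share of all genes. Mkx, a homeobox factor of tendon, had a log2 fold change of 0.93 ± 0.14 (SE, edgeR adjusted p = 0.000409). Gli3, a mediator of Hedgehog signalling, had a log2 fold change of -0.26. Id1, one of the ID proteins, fell by 0.32 on the log2 scale, the sole call among 8 dimer partners tested (12.5%). None of 11 epithelial genes tested was called by edgeR on soft gels. Of the 4 chondrocyte markers tested, Acan fell by 0.47 on the log2 scale in the same comparison, and the other 3 were not called. Of 6 smooth muscle and pericyte markers, 3 rose (Myh11 by 0.86, Cnn1 by 0.54 and Acta2 by 0.28 on the log2 scale) and 2 fell (Cspg4 by 0.66 and Mcam by 0.39). Myh11 was low, with a mean of 1.92 CPM over all samples. Of 5 genes in the Schwann cell list, Ngfr, low at a mean of 2.38 CPM, fell by 0.72 and S100b by 0.38. The others were not called. The part of these cell types in the soft-gel value of Prrx1 was not tested.

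**Figure D2:**
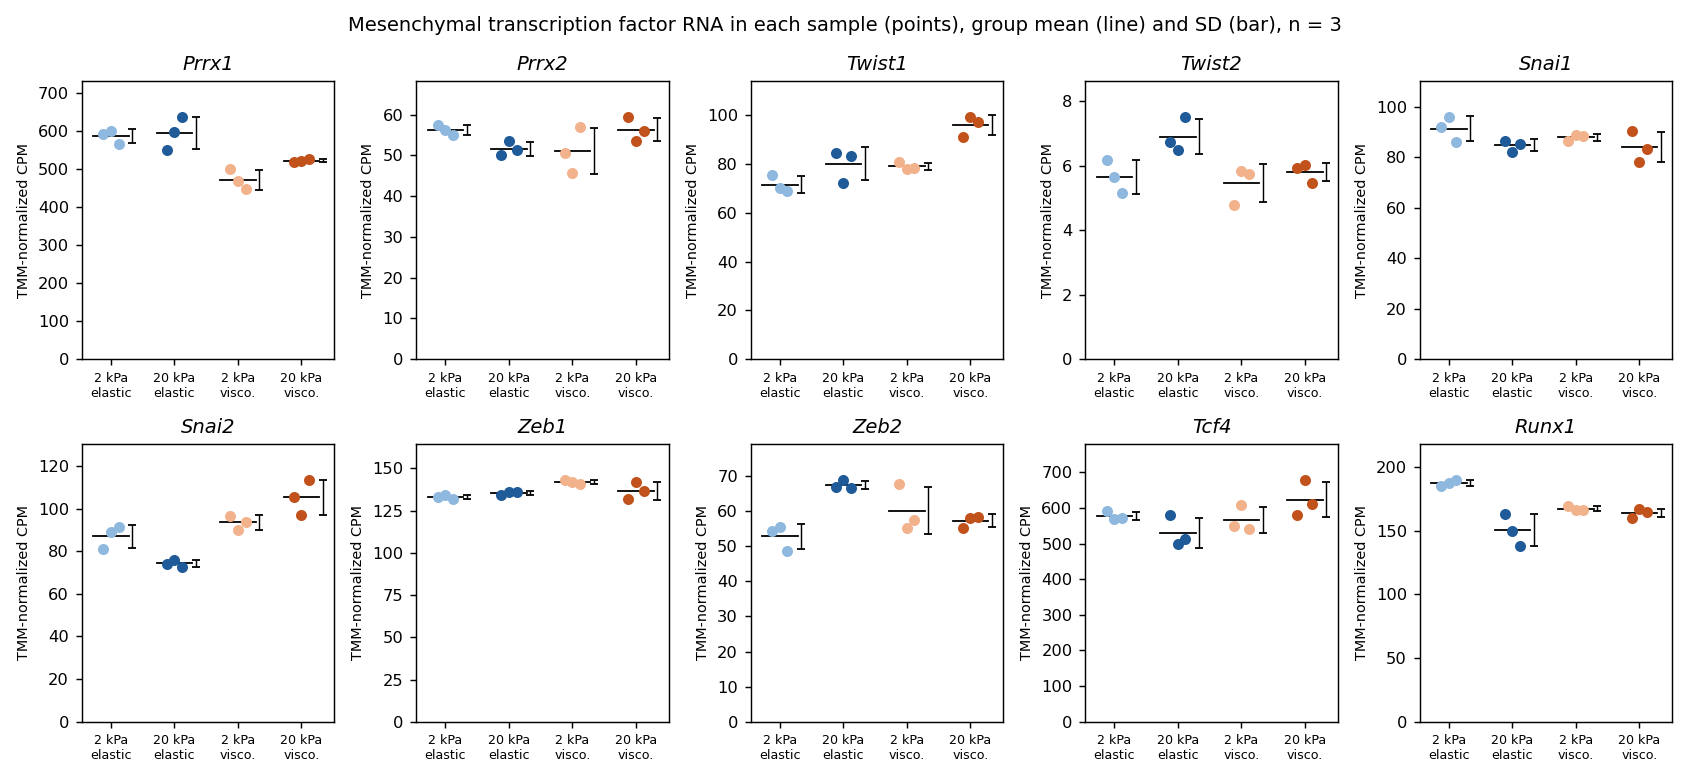
TMM-normalized CPM of each gene in each of the 12 samples (points; each panel has its own axis from 0), with group means (lines) and SD (bars), n = 3. Prrx1 lies lower on both viscoelastic gels than on the elastic gels, and Snai2 lies highest on 20-kPa viscoelastic and lowest on 20-kPa elastic gels.

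On stiff gels viscoelasticity went with higher levels of Snai2, Twist1 and Tcf4 and lower levels of Zeb2 and Prrx1. At 20 kPa, 5 of the 10 members were called, 3 up and 2 down, against 33.5% of all genes, 17.4% up and 16.1% down. The median log2 fold change of the members was 0.07 against 0.02 for all genes tested. Samples of the 2 groups did not overlap for 49.9% of all genes.

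Snai2, the Slug repressor of the neural crest and of EMT, had the largest change of any member. It was at 74.2, 76.1 and 72.6 CPM on stiff elastic gels and at 106, 96.9 and 113 CPM on stiff viscoelastic gels. Every viscoelastic sample exceeded every elastic one. The log2 fold change was 0.50 ± 0.07 (SE), a rise of 41.7%, with an edgeR adjusted p of 0.000141. Snai1, the other Snail gene, was at 86.7, 82.2 and 85.5 CPM against 90.5, 78.4 and 83.4 CPM. These samples overlapped fully, and the 95% interval of the log2 fold change was -0.14 to 0.12 (edgeR adjusted p = 0.900).

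Twist1 was at 84.7, 72.3 and 83.4 CPM on stiff elastic and at 91.2, 99.2 and 97.2 CPM on stiff viscoelastic gels. No sample overlapped, and the log2 fold change was 0.26 ± 0.06 (SE, edgeR adjusted p = 0.00718). With the correction for exon length, however, the log2 fold change was 0.11 and was not called (edgeR adjusted p = 0.202). Twist2 was lower in the viscoelastic samples, at 5.92, 6.0 and 5.47 CPM against 6.72, 6.48 and 7.49 CPM, but with a log2 fold change of -0.25 ± 0.11 it was not called (edgeR adjusted p = 0.0842). It was called with the length correction, at -0.32 (edgeR adjusted p = 0.0284), and with the GC correction, at -0.28 (0.0393). Tcf4, the E protein, was at 579, 498 and 512 CPM on elastic and 581, 678 and 610 CPM on viscoelastic gels. The lowest viscoelastic and the highest elastic sample were nearly level. Its log2 fold change was 0.24 ± 0.08 (SE, edgeR adjusted p = 0.0294), and leaving out 1 of 4 samples in turn (elastic replicates 2 or 3, viscoelastic replicates 2 or 3) ended the call, with adjusted p of 0.123, 0.10, 0.132 and 0.0561.

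Zeb2 was at 66.9, 68.9 and 66.6 CPM on stiff elastic gels and at 55.2, 58.1 and 58.5 CPM on stiff viscoelastic gels. The groups did not overlap, and the log2 fold change was -0.24 ± 0.07 (SE, edgeR adjusted p = 0.0222). The correction for exon length reduced it to -0.08 (edgeR adjusted p = 0.338), and it also lost the call without elastic replicate 2 (0.0721) or viscoelastic replicate 1 (0.0782). Zeb1 remained within 132 to 142 CPM in these 6 samples, with a 95% interval of -0.09 to 0.12 for the log2 fold change.

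Prrx1 was at 550, 598 and 636 CPM on stiff elastic and at 519, 522 and 526 CPM on stiff viscoelastic gels. The viscoelastic samples lay below all elastic ones and were tightly grouped. The log2 fold change of -0.19 ± 0.07 passed narrowly (edgeR adjusted p = 0.0420). It lost the call in 8 of 12 fits that left out 1 sample, with adjusted p up to 0.184 without elastic replicate 3. After the length correction its log2 fold change was -0.08 (edgeR adjusted p = 0.325). The call was also lost with total counts (edgeR adjusted p = 0.0774), without the expression filter (0.0616) and with the 6 stiff samples fitted alone (0.0529). The replicate number as a block ended it too (0.0713). Prrx2 and Runx1 had log2 fold changes of 0.13 and 0.12 and were not called (edgeR adjusted p = 0.186 and 0.122). Runx1 was called with the length correction, at a log2 fold change of 0.23 (edgeR adjusted p = 0.0154), and without elastic replicate 1 (0.0424).

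Averaged over both stiffnesses, 3 members were called for viscoelastic against elastic gels, 2 up and 1 down, against 40.0% of all genes (19.6% up, 20.4% down). All 6 viscoelastic samples were below all 6 elastic ones for Prrx1. It fell by 0.25 on the log2 scale (SE 0.05, edgeR adjusted p = 0.000851), Snai2 rose by 0.30 ± 0.05 (0.000185) and Twist1 rose by 0.20 ± 0.05 (0.00311). Prrx1 and Snai2 were also called in every alternative at a threshold of 0.05, whereas Twist1 was not after the length correction (log2 fold change 0.08, edgeR adjusted p = 0.172). The 2-kPa and the 20-kPa comparison use separate samples. The sign of the log2 fold change was the same in both for 6 of 10 members and for 68.3% of all genes.

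**Figure D3:**
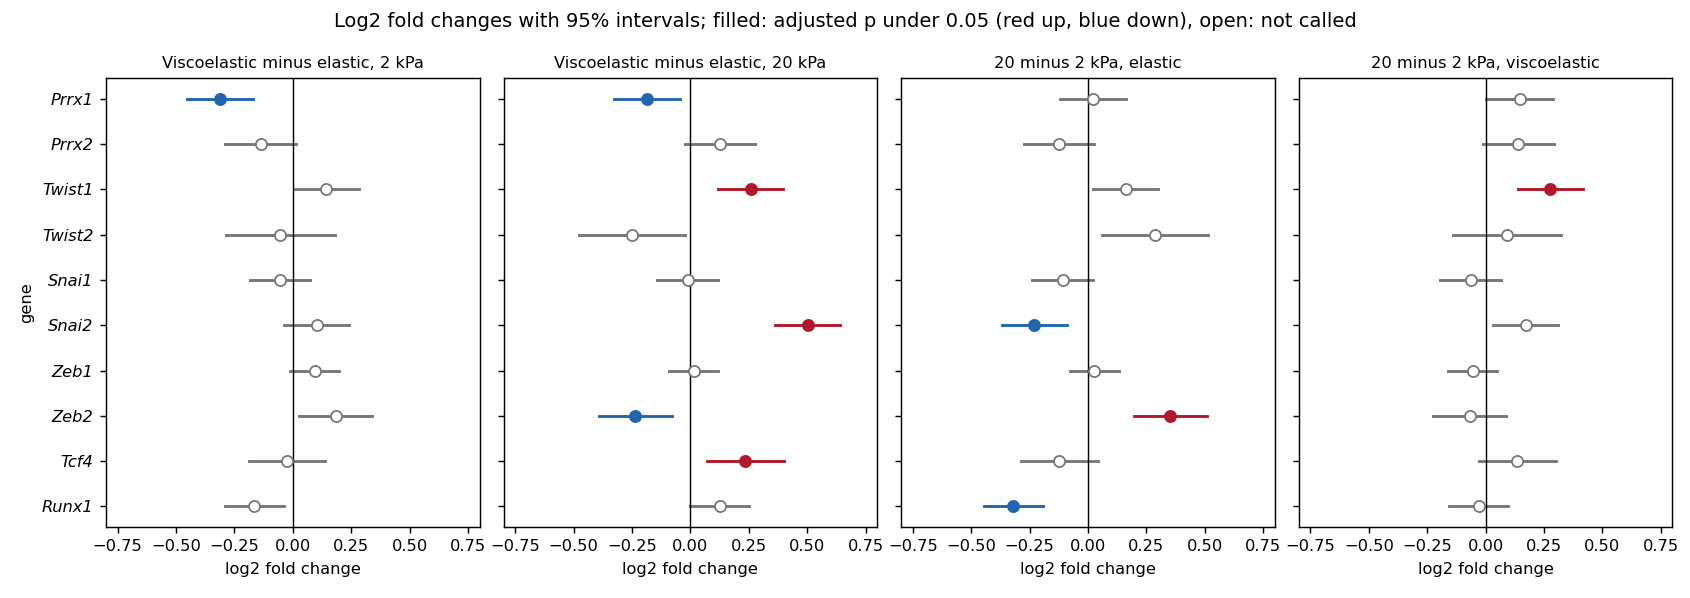
Log2 fold change (x axis) and 95% interval of each gene (y axis) in the 4 comparisons of 2 groups, filled red or blue where called up or down by edgeR at an adjusted p under 0.05 and open where not called. Prrx1 is called down for viscoelastic gels at both stiffnesses, and 5 genes are called at 20 kPa.

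Other genes of the program were also called on stiff gels, where 33.5% of all genes were called. Of 24 effector genes of EMT tested, 5 rose and 10 fell on viscoelastic gels, 62.5% of the list. Postn, a matricellular protein of fibroblasts, had a log2 fold change of 0.69 ± 0.10 (SE, edgeR adjusted p = 0.000225). Among 30 other mesenchymal factors tested 10 rose and 4 fell, 46.7% of those tested. Osr2, a zinc-finger factor of developing connective tissue, had a log2 fold change of 0.92 ± 0.22 from a low level of 1.99 ± 0.468 CPM (SD), and Tead1, the DNA-binding partner of YAP, fell by 0.52 on the log2 scale. Of the corepressors and turnover factors of Snail and Zeb, 3 of 18 rose and 2 fell. These calls were 27.8% of the list, a smaller share than the 33.5% of all genes. Hdac2, a histone deacetylase, was up by 0.22, and Rcor1, the CoREST scaffold, had a log2 fold change of -0.31. Jup, the junction protein plakoglobin, was the only call among 11 epithelial genes tested by edgeR, 9.09% of them (log2 fold change -0.24). In the same comparison the cartilage genes Col9a1 and Comp had log2 fold changes of 0.87 and 0.64 and were called (edgeR adjusted p = 0.000441 and 0.00175). Col2a1 and Acan, at 0.32 and -0.01, were not called (edgeR adjusted p = 0.0654 and 0.942). S100b, at 0.94, was the only call among the 5 genes of the Schwann cell list. Of 6 smooth muscle and pericyte markers 5 fell, the low Myh11 (mean 1.92 CPM) by 1.20 and Acta2 by 0.44 on the log2 scale. Their part in the changes of Snai2, Twist1, Tcf4, Zeb2 and Prrx1 was not tested.

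On elastic gels, stiffness went with more Zeb2 and with less Runx1 and Snai2. From 2 to 20 kPa, 3 of 10 members were called, 1 up and 2 down, against 14.0% of all genes, 6.81% up and 7.14% down, and 35.6% of all genes had samples that did not overlap. The median log2 fold change of the members was -0.04 and that of all genes -0.01. These values share the elastic samples with the comparisons above and are not independent of them.

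Zeb2 was at 54.4, 55.4 and 48.7 CPM on soft elastic gels against 66.9, 68.9 and 66.6 CPM on stiff elastic gels. All stiff samples were higher. The log2 fold change was 0.35 ± 0.07 (SE), a rise of 27.6%, with an edgeR adjusted p of 0.00569. Runx1 was at 185, 188 and 190 CPM on soft and at 163, 150 and 138 CPM on stiff elastic gels. All stiff samples were lower, with a wider spread, and the log2 fold change was -0.32 ± 0.06 (SE), a fall of 19.8% (edgeR adjusted p = 0.00278). The calls of Zeb2 and Runx1 held in every alternative at a threshold of 0.05.

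Snai2 was at 81.1, 88.9 and 91.3 CPM on soft elastic gels and, as given above, between 72.6 and 76.1 CPM on stiff ones. The samples did not overlap, and the log2 fold change was -0.23 ± 0.07 (SE, edgeR adjusted p = 0.0300). Leaving out soft replicate 2 or 3 or any of the stiff replicates ended that call, with adjusted p of 0.0586 to 0.115. Prrx1 was close to level between the 2 elastic gels, with a log2 fold change of 0.02 and a 95% interval of -0.12 to 0.16. Twist2 and Twist1, with log2 fold changes of 0.29 ± 0.11 and 0.16 ± 0.07, were not called (edgeR adjusted p = 0.0904 and 0.113). Both were called after a correction for GC content, with log2 fold changes of 0.33 and 0.27 (edgeR adjusted p = 0.0353 and 0.0183).

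Among the other lists on elastic gels, 8 of 24 effector genes rose with stiffness and 2 fell. These calls were 41.7% of the list, against 14.0% of all genes. Fap fell by 1.03 (SE 0.18, edgeR adjusted p = 0.00185). Of 30 other mesenchymal factors 4 rose and 6 fell, 33.3% of those tested. Klf4, a zinc-finger factor of differentiation and reprogramming, went from 43.9 ± 2.54 to 75.2 ± 12.6 CPM (SD), and Osr2 fell by 0.90 on the log2 scale. Id4 was the sole call among the dimer partners, 12.5% of those tested (log2 fold change 0.36). Krt19, a simple-epithelium keratin with a mean of 1.94 CPM, was the sole call among the epithelial genes tested by edgeR, 9.09% of them (0.79). The cartilage genes Acan and Col9a1 fell by 0.50 and 0.69 on the log2 scale in this comparison, and Col2a1 and Comp were not called. Of 5 genes in the Schwann cell list, S100b fell by 0.76 and the low Ngfr (mean 2.38 CPM) by 0.69, and the others were not called. Of 6 smooth muscle and pericyte markers 3 rose, the low Myh11 (mean 1.92 CPM) by 1.41, Cnn1 by 0.60 and Acta2 by 0.57 on the log2 scale. Their part in the values of Zeb2, Runx1 and Snai2 was not tested.

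On viscoelastic gels the same step in stiffness left Twist1 as the one member called, against 2.28% of all genes (1.58% up, 0.695% down). Twist1 was at 80.7, 78.1 and 78.4 CPM on soft viscoelastic gels and at 91.2, 99.2 and 97.2 CPM on stiff ones. The samples did not overlap, which held for 22.3% of all genes. The log2 fold change was 0.28 ± 0.06 (SE), a rise of 21.2%, with an edgeR adjusted p of 0.0391. This call was narrow. It was lost after the length correction (0.108), with the 6 viscoelastic samples fitted alone (0.119) and in 9 of 12 fits that left out 1 sample, with adjusted p up to 0.153 without stiff viscoelastic replicate 3. Prrx1 went from 449 to 501 CPM on soft to 519 to 526 CPM on stiff viscoelastic gels without overlap, and its log2 fold change of 0.15 ± 0.07 was not called (edgeR adjusted p = 0.249). Snai2 had a log2 fold change of 0.17 ± 0.07 (edgeR adjusted p = 0.165). Id2 was the only dimer partner called (log2 fold change 0.35 ± 0.05, edgeR adjusted p = 0.0115), and Hic1, a zinc-finger factor of quiescent mesenchymal cells, the only other mesenchymal factor (0.50 ± 0.12).

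Whether stiffness acted alike on the 2 kinds of gel was tested directly by the interaction, the log2 stiffness difference of the viscoelastic gels less that of the elastic gels. It was called for 2 of 10 members, 1 up and 1 down, against 7.56% of all genes (4.45% up, 3.12% down). For Snai2 the stiffness difference was -0.23 on elastic and 0.17 on viscoelastic gels, and the interaction of 0.40 ± 0.09 (SE) was called with an edgeR adjusted p of 0.0160. For Zeb2 the differences were 0.35 and -0.07, and the interaction of -0.42 ± 0.10 was called with an edgeR adjusted p of 0.0229. The Zeb2 call was lost without soft elastic replicate 3 (0.0580), stiff elastic replicate 2 (0.0563) or stiff viscoelastic replicate 1 (0.0613), whereas that of Snai2 held in every alternative at a threshold of 0.05. Runx1, with differences of -0.32 and -0.03 and an interaction of 0.29 ± 0.08, missed the threshold (edgeR adjusted p = 0.0501). Twist1 had differences of 0.16 and 0.28, and the 95% interval of its interaction was -0.08 to 0.31, so that its call on viscoelastic gels alone does not show a difference between gels. Prrx1, called for viscoelasticity at both stiffnesses, had an interaction of 0.13 with a 95% interval of -0.08 to 0.33.

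**Figure D4:**
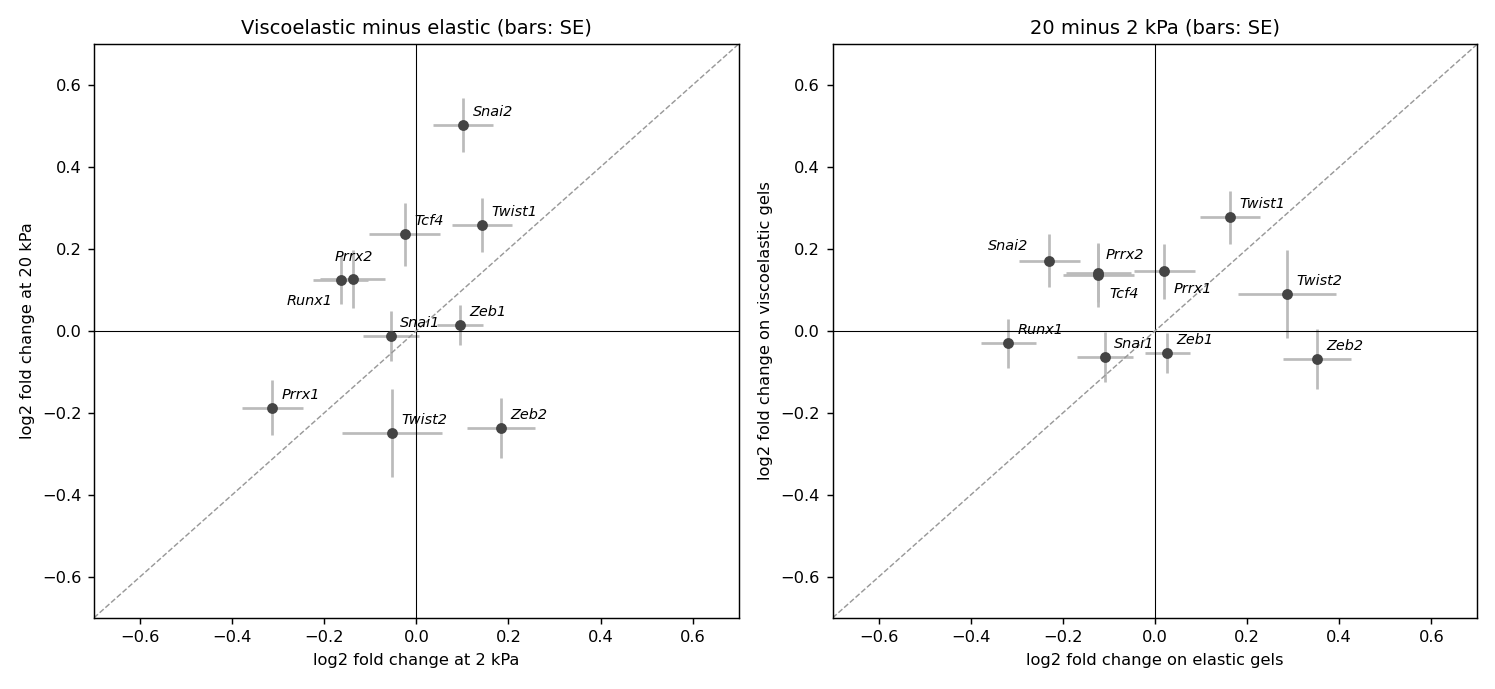
Log2 fold change of each gene with SE bars, for viscoelastic minus elastic at 2 kPa (x) and 20 kPa (y) on the left, and for 20 minus 2 kPa on elastic (x) and viscoelastic gels (y) on the right, with equal values on the dashed line. Snai2 lies above the line and Zeb2 below it in both panels, the 2 genes whose interaction was called.

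The ratio of the 2 paralogs of a family within a library is a quantity that library scaling does not affect. Ratios of levels per kb are given as descriptions, without a test. Paralogs differ in exon length (11066 bases for Prrx1 and 1961 for Prrx2), and the length correction that ended the 20-kPa calls of Prrx1, Twist1 and Zeb2 was not applied to them. The ratio of Snai2 to Snai1 was 0.767 ± 0.0740 (SD, n = 3) on soft elastic and 0.703 ± 0.0343 on stiff elastic gels, and 0.853 ± 0.0435 on soft and 1.01 ± 0.0783 on stiff viscoelastic gels. On stiff gels its lowest viscoelastic value, 0.935, exceeded the highest elastic one, 0.743, while on soft gels the ranges met. For Prrx1 to Prrx2 the ratio was 1.85 ± 0.0401 and 2.04 ± 0.138 on soft and stiff elastic gels, and 1.65 ± 0.223 and 1.65 ± 0.0896 on the viscoelastic ones. All 6 viscoelastic values, at most 1.81, lay below all 6 elastic values, at least 1.82, by a small margin. Twist1 exceeded Twist2 by 22.7 ± 1.63 times on stiff elastic and 32.3 ± 2.31 times on stiff viscoelastic gels, again without overlap, with 24.8 ± 1.21 and 28.6 ± 3.85 times on the soft gels. The ratio of Zeb1 to Zeb2 was lowest on stiff elastic gels, at 3.90 ± 0.0675, and between 4.63 ± 0.467 and 4.90 ± 0.312 in the other groups.

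**Figure D5:**
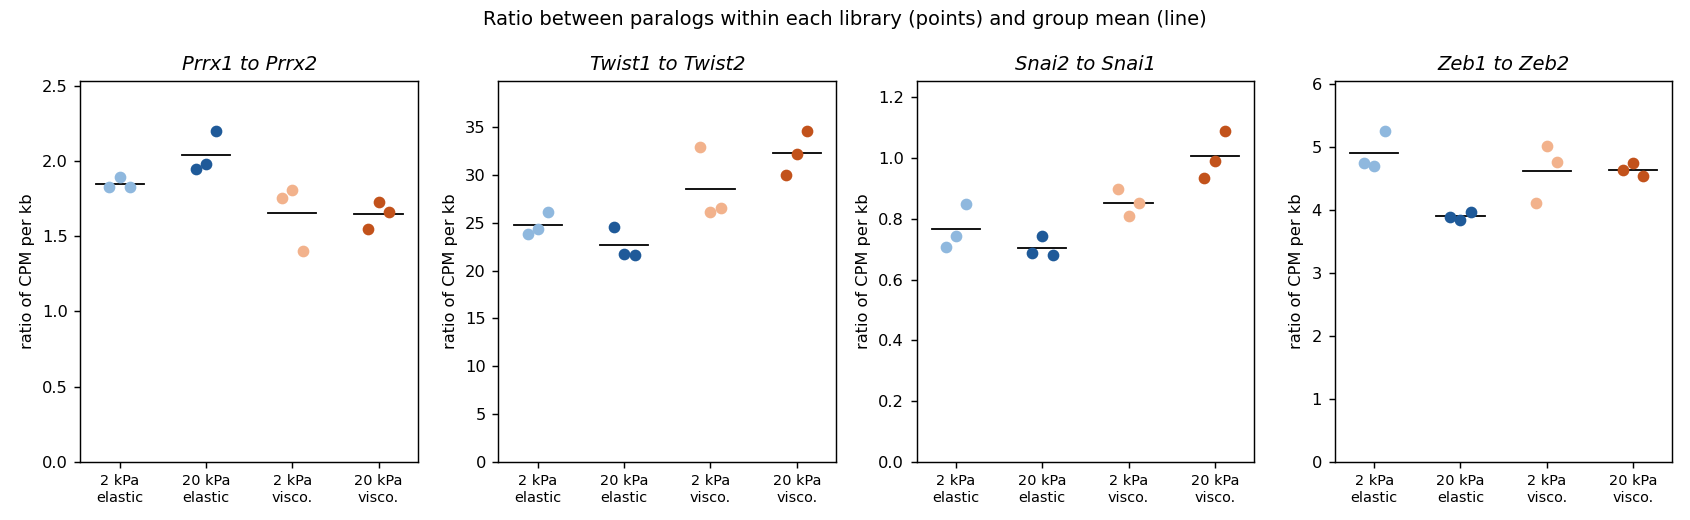
Ratio of CPM per kb between the 2 paralogs of each family within each library (points) and the group mean (line), with each axis from 0. Snai2 to Snai1 is highest on 20-kPa viscoelastic gels, and Zeb1 to Zeb2 is lowest on 20-kPa elastic gels.

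The 4 members that were called in no comparison of 2 groups were Prrx2, Twist2, Snai1 and Zeb1. Snai1 ran from 78.4 to 95.9 CPM over the 12 samples and overlapped in all 4 comparisons. Zeb1 was at 133, 134 and 132 CPM on soft elastic and at 143, 142 and 141 CPM on soft viscoelastic gels, which did not overlap, yet the log2 fold change of 0.09 ± 0.05 was not called (edgeR adjusted p = 0.190). With the length correction it was 0.19 and was called (edgeR adjusted p = 0.0189). Its other group means were 135 CPM on stiff elastic and 137 CPM on stiff viscoelastic gels. Prrx2 ran from 45.8 to 59.4 CPM, and its interaction of 0.26 ± 0.10 was not called (edgeR adjusted p = 0.126).

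For each called member, the 2 genes with the most similar pattern were sought by the root mean square difference of centred log2 CPM over the 12 samples. Prrx1 was nearest to Usp10 (0.0563) and Amotl1 (0.0568), and Zeb2 to Kctd9 (0.0588) and Tjp1 (0.0620). Twist1 was nearest to Pfdn6 (0.0537) and Uqcc2 (0.0590), and Runx1 to Sft2d2 (0.0504) and Foxo3 (0.0527). Tcf4 was nearest to Ppt1 (0.0468) and Tmem176a (0.0517), and Snai2 to Dpcd (0.0659) after an unnamed gene listed as X2310039H08Rik (0.0541). These differences compare with a standard deviation of 0.20 for Snai2 itself and of 0.15 for Prrx1 on the same scale. No other member was among the 2 nearest genes of a member.

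Calls in the remaining lists are set beside the share of all genes called. Of the 12 relatives from the same gene families, 6 passed the filter. Among corepressors and turnover factors on soft gels 1 of 18 rose and 3 fell for viscoelastic against elastic. These calls were 22.2% of the list, against 19.9% of all genes. Lats2, a Hippo kinase, was up by 0.22 and Limd1, an adaptor protein, had a log2 fold change of -0.29. With stiffness on elastic gels, Lats2 and Limd1 had log2 fold changes of 0.24 and -0.19. There 2 of 18 rose and 1 fell, 16.7% of the list against 14.0% of all genes. Hand2, a Twist-related factor, was called on stiff viscoelastic gels with a log2 fold change of 1.04 ± 0.35, at levels of 0.211 ± 0.0392 against 0.441 ± 0.0625 CPM (SD). On stiff gels 2 of 8 dimer partners rose and none fell, 25% of those tested against 33.5% of all genes.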

How the data were processed

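Poly-A RNA of 12 samples was sequenced. Per the labels and the study's methods, the authors trimmed reads with Trimmomatic, aligned them to mm10 with STAR, assigned them to GENCODE genes with featureCounts, and deposited the resulting counts as one table, not normalized. The annotation release, the strand setting and the treatment of multi-mapping reads are not given in the sources used here. From these counts, genes passing filterByExpr in edgeR 4.0.16 (minimum count 10, minimum total 15, R 4.3.3) were kept, 14542 of 33246. After TMM scaling, all 12 samples entered one quasi-likelihood fit of the 4 group means, and p-values were adjusted by Benjamini-Hochberg over all genes tested. Genes with an adjusted p under 0.05 were called, without a fold-change minimum. The biological coefficient of variation was 7.50%. CPM values are TMM-normalized, and exon lengths and positions came from GENCODE M21. At 36626221 to 43612804 counts per sample, and with replicates 11.2 to 55.5 times the counting variance apart, no 2 samples were the same library.

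The members and gene lists (dimer partners, family relatives, corepressors and turnover factors, other mesenchymal factors, EMT effectors, epithelial genes and cell type markers) were chosen with earlier results of these data known. From each list and comparison of 2 groups, the called genes with the largest rise and the largest fall were named, and each called member was paired with the 2 genes of most similar pattern. Corrections for exon length and GC content fitted a loess trend over that property to each sample's log2 CPM deviations from the gene means. The trend was added to the scaling of that sample before the fit. Length was known for 97.1% of genes tested. The other alternatives were DESeq2 1.42.0, its size factors in edgeR, total counts, no expression filter, the replicate number as a block, the 6 compared samples alone, a threshold of 0.01, and each sample left out. Comparisons over accessible chromatin, protein and imaging were not analysed here, and some genes that the rule takes are left out of the text.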

Additional observations from a re-analysis of the deposited data

Results flagged for a closer look

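The stiffness difference of the viscoelastic gels less that of the elastic ones (log2, edgeR's interaction test adjusted over all genes) was called for 8 of the named genes. Over all genes tested, 7.56% were called. The named genes outside the members had been picked for their large changes between groups of these same samples. That choice favours interaction calls, so the count of 8 carries no weight of its own. Among the members these were Snai2, at 0.40 ± 0.09 (SE, edgeR adjusted p = 0.0160), and Zeb2, at -0.42 ± 0.10 (0.0229).

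In the other lists, the difference was positive for Id2 at 0.37 ± 0.08 (SE, edgeR adjusted p = 0.0101), Osr2 at 1.49 ± 0.31 (0.00899) and Fap at 1.76 ± 0.26 (0.00100). It was negative for Klf4 at -0.86 ± 0.14 (SE, edgeR adjusted p = 0.00222), S100a4 at -0.31 ± 0.08 (0.0320) and Krt19 at -1.19 ± 0.32 (0.0361). The 20-kPa elastic group enters each of these values, and in it the chondrocyte marker sum was lowest (4096 to 4152 CPM). The part of that difference was not tested.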

How the results depend on the processing

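The number of members called for viscoelastic against elastic gels at 2 kPa was 1, and it was 2 with total counts or DESeq2, 3 with the exon length correction and 3 with the GC correction, with a range of 1 to 2 when single samples were left out. At 20 kPa it was 5, with a range of 2 to 6 over single samples left out (2 without elastic replicate 2; 3 without elastic replicate 3 or any viscoelastic replicate) and 2 at a threshold of 0.01. For stiffness on elastic gels it was 3, with 5 after the GC correction and 2 to 3 with single samples left out. On viscoelastic gels it was 1, and 0 after the length correction, with the 6 samples alone, at a threshold of 0.01 and in 9 of 12 fits with a sample left out (range 0 to 1). The mean viscoelastic effect went from 3 to 7 calls with the length correction and stayed at 3 with any sample left out, and the interaction from 2 to 0 at a threshold of 0.01, with 1 to 3 when a sample was left out (1 without soft elastic replicate 3, stiff elastic replicate 2 or stiff viscoelastic replicate 1). Calls over all genes moved as well. With the length correction they went from 1275 up and 1617 down to 1325 and 1241 at 2 kPa. For stiffness on viscoelastic gels they went from 230 and 101 to 101 and 75. With the 6 viscoelastic samples alone they were 12 and 26. For the mean viscoelastic effect the length correction took them from 2846 and 2971 to 2530 and 2499. The GC correction took those for stiffness on elastic gels from 991 and 1038 to 1124 and 935. Apart from fewer samples or the stricter threshold, the cause was not tested.

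Signs that turned were all of values that were not called. At 2 kPa they were Snai1 (0.012 with the GC correction), Tcf4 (0.012 with total counts, 0.15 with the length correction, -0.079 to 0.0072 with samples left out) and Twist2 (-0.12 to 0.035 with samples left out). At 20 kPa they were Prrx2 (-0.0037, length), Snai1 (0.024 with total counts, -0.068 to 0.037 with samples left out) and Zeb1 (-0.000973 with DESeq2, -0.014 to 0.040 with samples left out). For stiffness on elastic gels they were Prrx1 (-0.022, GC; -0.031 to 0.090 with samples left out), Prrx2 (0.020, GC) and Snai1 (0.0088, GC), and on viscoelastic gels Runx1 (0.0062, length) and Zeb2 (-0.13 to 0.026 with samples left out). The cause was not tested. Over all alternatives, the tallied values of single members kept direction and side of the threshold in 818 cases, lost a call in 42, gained one in 16 and turned sign in 19. For the mean viscoelastic effect and the interaction only the called members entered this tally. Calls gained there by other members, and signs they turned, are thus not counted in it.

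Deviations of same-numbered samples from their group means had correlations of -0.160 to 0.308, and 2 of 12 exceeded 0.1. Both of these joined soft and stiff viscoelastic samples, where replicates 1, 2 and 3 gave 0.184, 0.308 and 0.048. Whether these samples share a batch was not tested. With the replicate number as a block, Twist1 for stiffness on viscoelastic gels (edgeR adjusted p = 0.0617, 0 members called) and Prrx1 at 20 kPa (0.0713) were no longer called, and no other member's call changed. With total counts instead of TMM, the genes called up and down were 1675 and 1258 at 2 kPa (TMM 1275 and 1617), 2937 and 1901 at 20 kPa (TMM 2527 and 2339), and 3538 and 2309 for the mean viscoelastic effect (TMM 2846 and 2971). Twist2, at 187 to 304 counts per sample, is the member whose precision depth limits most.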
